A study of Mus musculus with 44 samples.

Results

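This account covers 8 genes grouped under osmolyte and urea transport in the kidney medulla: Nfat5, Akr1b3, Slc5a3, Slc6a12, Slc6a6, Slc14a2, Slc14a1 and Sorl1. They were chosen by name, with earlier results of these data known, out of 24733 genes with any value above 0. All 8 passed the filter for testing, a mean of 1 TPM or more, as did 12874 genes in all. TPM is transcript abundance corrected for length and set to a fixed library total. The RNA was polyadenylated RNA of whole kidney from mice of strain 129SV, aged 8 to 12 weeks and held on night-restricted feeding. WT mice were compared with KO mice, in which Arntl (Bmal1), a core transcriptional activator of the clock, was knocked out. Sampling fell at ZT (zeitgeber time, hours) 0, 4, 8, 12, 16 and 20, with libraries A and B at each time in each genotype, so that 12 groups of 2 made 24 libraries. How the Arntl allele was made and the sex of the mice are not given in the sources used here. The labels do not say that A and B came from separate animals, so the p-values below measure the spread between these libraries, which may in part be technical.

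The tissue around the medullary tubules is kept hypertonic, and this gradient lets the kidney concentrate urine. Medullary cells balance the outside salt with small organic osmolytes (sorbitol, myo-inositol, betaine and taurine) that do not disturb proteins. The transcription factor Nfat5, also called TonEBP, is activated by hypertonicity and raises transcription of the enzyme and the transporters that gather these osmolytes. Urea, the other main solute of the inner medulla, passes through urea transporters of the collecting duct and thin limbs (Slc14a2, UT-A) and of the vasa recta and red cells (Slc14a1, UT-B). Sorl1 is a sorting receptor that in the thick ascending limb takes part in regulating the sodium-potassium-chloride cotransporter Slc12a1.

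Each library's TPM summed to between 999999 and 1000001, so the values keep no depth and no counting interval can be given. Arntl RNA, summed over its transcripts, ranged from 0.295 to 12.9 TPM in WT and from 4.19 to 6.28 TPM in KO. That sum does not show whether the deleted part of the gene is transcribed. The library labelled KO ZT4 A went against its label in clock genes: Nr1d1 stood at 23.8 TPM there, while the WT libraries of that time held 22.03 and 33.0 TPM and the remaining 11 KO libraries 1.23 to 3.46 TPM. Cry1 stood at 1.03 TPM there, between the WT values of 0.845 and 1.20 TPM and far under the 11.5 to 17.8 TPM of the remaining KO libraries. The genotype calls, the counts by list and the marker ratios are therefore given with and without that library. Over all genes the median log2 difference, KO minus WT, was 0.15, and 6555 genes were called higher and 1289 lower in KO. Rescaling by the median of ratios, so that the typical gene is level across libraries, gave 2767 higher (21.5% of those tested) and 2911 lower (22.6%).

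Of the 8 genes, 7 were higher in KO and 0 were lower, with Akr1b3 not called (limma, Benjamini-Hochberg adjusted p under 0.05). Of all genes tested, 60.9% were called in either direction and 50.9% were called higher in KO. The median log2 difference was 0.51 over the 8 genes and 0.15 over all genes. The betaine transporter gene Slc6a12 differed most, by 1.46, followed by the urea transporter genes Slc14a1 (1.12) and Slc14a2 (0.87). Without the library labelled KO ZT4 A, the same 7 genes were called, with log2 differences from 0.37 for Nfat5 to 1.54 for Slc6a12. The share of all genes called in that fit is not given here, and with all libraries it was 60.9%. With median-of-ratios scaling 5 were called, against 21.5% of all genes called higher under that scaling, and Nfat5 and Slc5a3 were not among them. With the filter raised to 5 TPM, 6 of the 8 were tested and 5 called higher, as were 53.2% of all genes tested.

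**Figure D1:**
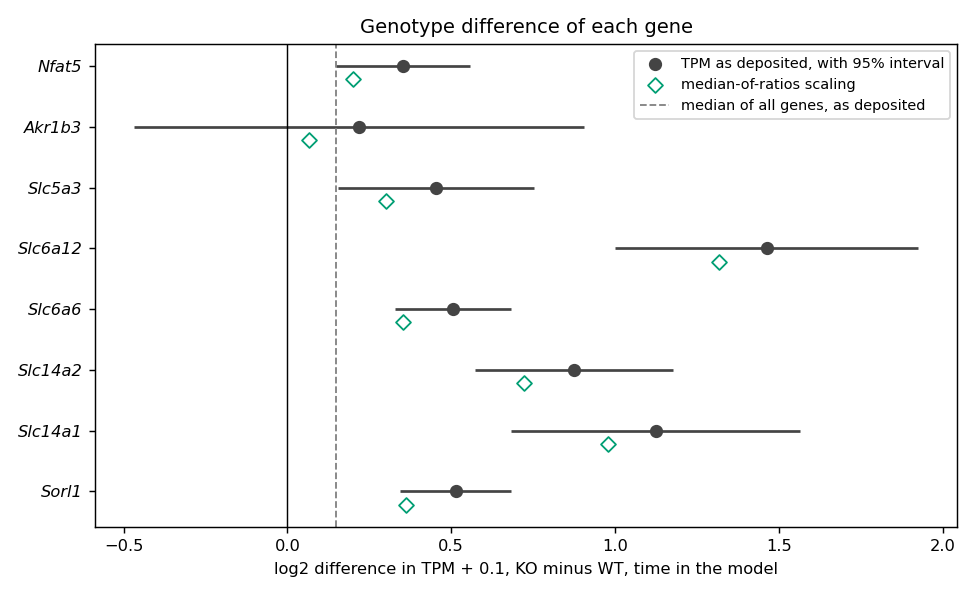
Log2 difference in TPM + 0.1, KO minus WT, for each of the 8 genes, with time in the model (24 libraries). Filled points are TPM as deposited with 95% intervals, diamonds are values after median-of-ratios scaling, and the dashed line is the median of all genes, 0.15. All intervals except that of Akr1b3 lie above 0, and Slc6a12 lies farthest from it.

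By time of day, both KO libraries lay above both WT libraries for 7 of the 8 genes at ZT0, where 51.8% of all genes did so. The count was 1 at ZT4 (background 37.2%), 6 at ZT8 (43.4%), 7 at ZT12 (57.3%), 8 at ZT16 (49.9%) and 4 at ZT20 (40.7%). The low count at ZT4 included the library labelled KO ZT4 A, which held the lowest KO value of 5 genes: Slc5a3, Slc6a12, Slc6a6, Slc14a1 and Sorl1. With KO ZT4 B alone, 7 of the 8 genes, all but Akr1b3, lay above both WT libraries of that time. The share of all genes that did so is not given here. The 37.2% above is for both KO libraries, a stricter condition, and is no background for that count. At the other end, KO ZT12 A held the highest KO value of 6 genes: Nfat5, Akr1b3, Slc5a3, Slc6a12, Slc14a2 and Slc14a1.

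**Figure D2:**
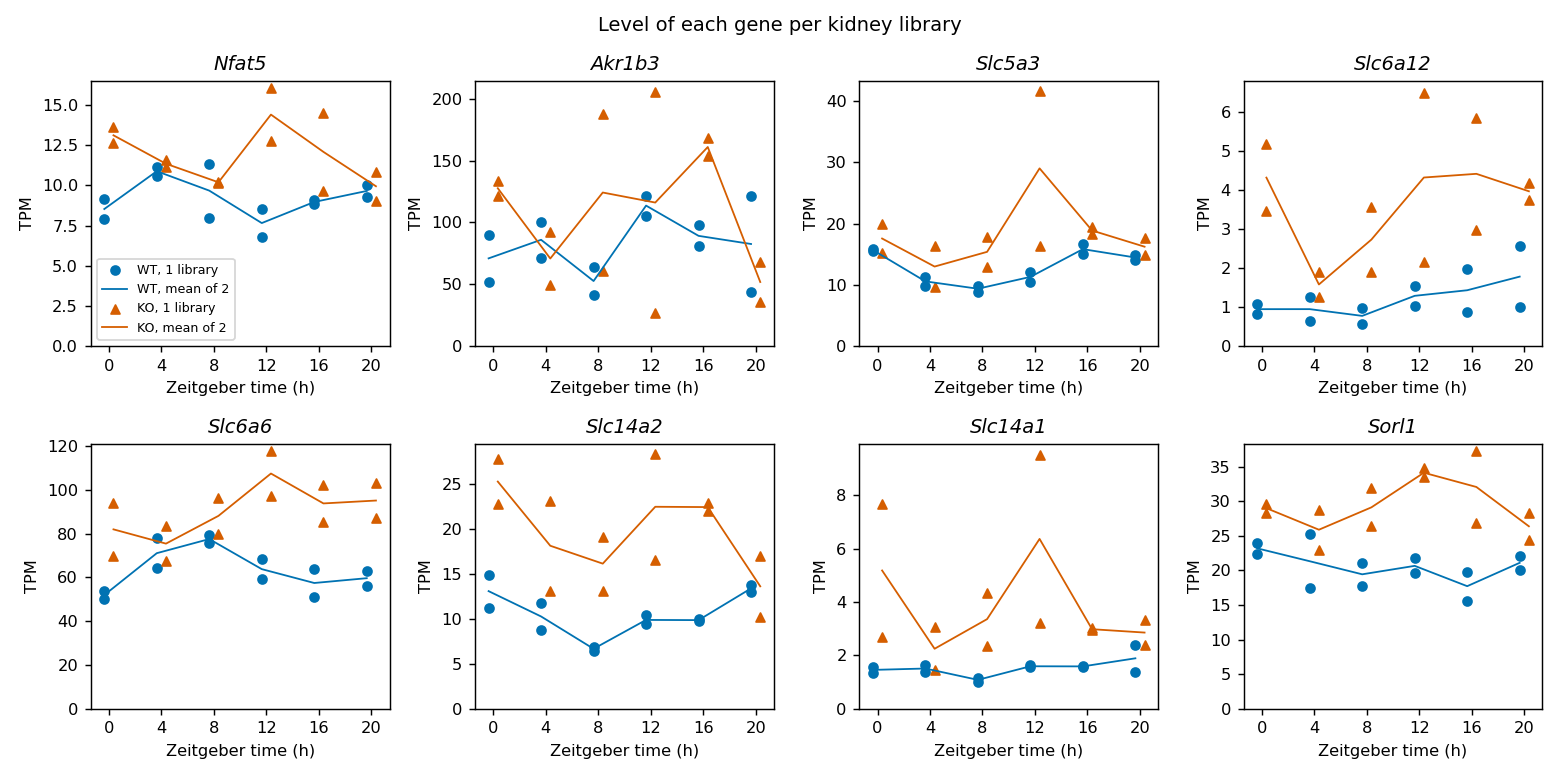
TPM of each of the 8 genes in every library (y axis from 0, scaled per gene) against zeitgeber time in hours. Circles are WT libraries and triangles KO libraries, 1 library each, and lines join the means of the 2 libraries. The KO line runs above the WT line at every time for every gene except Akr1b3, whose KO libraries spread from 26.7 to 205 TPM at ZT12.

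Nfat5, the tonicity-responsive transcription factor itself (chromosome 8, 107293470 to 107379517, plus strand, GRCm38), ranged from 6.76 through a median of 9.12 to 11.4 TPM in WT and from 9.06 through 11.4 to 16.04 TPM in KO. The genotypes overlapped, with 6 of 12 KO libraries above the highest WT library. The log2 difference was 0.35 ± 0.098 (SE, n = 12 libraries per genotype, limma adjusted p = 0.00448). With median-of-ratios scaling it was 0.20 (adjusted p = 0.0710) and was no longer called. Both KO libraries exceeded both WT libraries at ZT0, ZT12 and ZT16. At ZT4 the means of the 2 libraries were 10.9 TPM in WT and 11.4 TPM in KO, and at ZT12 the KO libraries stood at 16.04 and 12.8 TPM against 8.56 and 6.76 in WT. Of the summed level, 64.9% came from a single protein-coding transcript, a share of 64.2% in WT and 65.5% in KO.

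The first route of osmolyte accumulation is synthesis. Akr1b3 encodes aldose reductase, which makes sorbitol from glucose (chromosome 6, 34302434 to 34317478, minus strand). It ranged from 41.2 through 85.3 to 122 TPM in WT and from 26.7 through 107 to 205 TPM in KO. KO held both the lowest and the highest library of all 24, and these were the A and B libraries of the same time, ZT12, at 205 and 26.7 TPM. The gap between A and B at that time was 2.94 on the log2 scale, against a median gap over all genes of 0.172 in KO. The genotype difference was 0.22 ± 0.33 (95% interval −0.47 to 0.90, limma adjusted p = 0.579), so a difference of the size seen for most of the other genes lies within the interval. Akr1b3 was called under none of 35 alternative settings. Akr1b3 has close relatives that can share reads with it: Akr1b10 averaged 19.1 TPM in WT and 20.9 in KO, Akr1b7 1.92 and 3.10, and Akr1b8 1.81 and 2.21.

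The other route is uptake. Slc5a3 encodes the sodium-coupled myo-inositol transporter (chromosome 16, 92058322 to 92087473, plus strand). It ranged from 8.91 through 13.0 to 16.6 TPM in WT and from 9.68 through 17.0 to 41.6 TPM in KO. The KO libraries overlapped the WT libraries at the low end, and the highest, KO ZT12 A at 41.6 TPM, stood far above the next, KO ZT0 B at 19.98 TPM. The log2 difference was 0.45 ± 0.14 (adjusted p = 0.0108). Without KO ZT12 A it was 0.33 (adjusted p = 0.00368). Without KO ZT4 A, KO ZT8 A and both KO ZT12 libraries, an alternative added after the data were seen, it was 0.30 (adjusted p = 0.00203). With median-of-ratios scaling it was 0.30 (adjusted p = 0.0667) and was not called. Slc5a3 overlaps Mrps6, a mitochondrial ribosomal protein gene on the same strand, which averaged 81.0 TPM in WT and 104.8 TPM in KO, so reads of the shared part cannot be assigned with certainty.

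Slc6a12 encodes the betaine transporter BGT1, a classic target of Nfat5 (chromosome 6, 121343076 to 121365775, plus strand). It showed the largest proportional difference of the 8 genes at one of the lowest levels. WT libraries ran from 0.574 through 1.02 to 2.56 TPM, and KO libraries from 1.25 through 3.51 to 6.49 TPM. Of the 12 KO libraries, 8 exceeded the highest WT library, and the KO mean was 2.98 times the WT mean. The log2 difference was 1.46 ± 0.22 (adjusted p = 2.11e-05), and 1.54 without the library labelled KO ZT4 A. Both KO libraries exceeded both WT libraries at every time except ZT4, where KO stood at 1.25 and 1.91 TPM against 1.26 and 0.632 in WT. Its reads were spread over several transcripts, the leading protein-coding ones holding 33.6% and 24.2% of the level.

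RefSeq promoters (GRCm38.p6) were found for 4 of the 8 genes: Nfat5, Slc5a3, Slc6a12 and Sorl1. The 250 bases before each start were searched on both strands for TGGAAA, the core of the element bound by Nfat5, and for CACGTG, the E-box bound by Arntl with its partner Clock. The letters of the motifs can overlap at their ends, which happened in neither match here. Of all 32851 promoters, 18.6% held TGGAAA and 6.02% held CACGTG in the same window. TGGAAA was found once, before the farthest upstream of the 5 RefSeq starts of Slc6a12, at bases −75 to −70, and not before the 4 other starts. The gene start given above for Slc6a12, 121343076, was among those 4 starts without a match. CACGTG was found once, before the farther upstream of the 2 RefSeq starts of Sorl1, at bases −19 to −14, and not before the other start. The windows of Nfat5 and Slc5a3 held neither run of letters. Both sequences with a match are shown because they belong to the gene with the largest difference and to the receptor described below, with the match in capitals. The first lies at chr6:121342324-121342573 on the plus strand and the second at chr9:42124298-42124547 on the minus strand.
Slc6a12 promoter: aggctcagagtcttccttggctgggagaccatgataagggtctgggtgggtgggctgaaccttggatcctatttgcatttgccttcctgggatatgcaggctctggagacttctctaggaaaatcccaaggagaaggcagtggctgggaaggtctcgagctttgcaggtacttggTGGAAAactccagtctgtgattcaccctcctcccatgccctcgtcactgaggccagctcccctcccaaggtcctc
Sorl1 promoter: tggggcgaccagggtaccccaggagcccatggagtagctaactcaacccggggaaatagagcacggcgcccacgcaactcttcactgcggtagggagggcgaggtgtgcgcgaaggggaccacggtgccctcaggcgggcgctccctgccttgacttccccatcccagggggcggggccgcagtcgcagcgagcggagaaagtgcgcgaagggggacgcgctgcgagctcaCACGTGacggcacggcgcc
A match is a description of these letters only.

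Slc6a6 encodes the taurine transporter (chromosome 6, 91684053 to 91759066, plus strand). It ranged from 49.9 through 63.4 to 79.5 TPM in WT and from 67.4 through 90.6 to 118 TPM in KO. Of the 12 KO libraries, 10 lay above the highest WT library. The other 2 were the library labelled KO ZT4 A at 67.4 TPM and KO ZT0 A at 70.0 TPM. The log2 difference was 0.51 ± 0.085 (adjusted p = 5.64e-05), and 0.35 with median-of-ratios scaling (adjusted p = 0.00168). Its highest KO library was KO ZT12 B, the library in which Akr1b3 was lowest.

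The urea transporter genes Slc14a2 and Slc14a1 are neighbours on chromosome 18 (GRCm38, minus strand), and both were higher in KO. Slc14a2 (78146148 to 78596942) ranged from 6.47 through 10.2 to 14.9 TPM in WT and from 10.2 through 20.6 to 28.4 TPM in KO, a KO mean 1.87 times that of WT. KO exceeded WT by a log2 difference of 0.87 ± 0.14 (adjusted p = 5.42e-05). Slc14a2 was the only one of the 8 genes whose KO libraries both exceeded the WT libraries at ZT4, at 13.1 and 23.1 against 11.7 and 8.77 TPM. At ZT20 they did not, at 17.0 and 10.2 TPM against 13.8 and 13.0. One protein-coding transcript carried 97.3% of the level.

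Slc14a1 (78100091 to 78142119) ranged from 1.02 through 1.56 to 2.40 TPM in WT and from 1.45 through 3.03 to 9.50 TPM in KO. Of the 12 KO libraries, 10 lay above the highest WT library, and 2 stood well above the rest, KO ZT12 A at 9.50 TPM and KO ZT0 A at 7.67 TPM. Its log2 difference was 1.12 ± 0.21 (adjusted p = 1.78e-04), 1.22 without the library labelled KO ZT4 A and 0.998 without KO ZT12 A. Red cells also carry this transporter, so the summed level of 6 erythroid markers is given beside it. That sum ran from 826 to 2090 TPM in WT and from 1052 to 2549 TPM in KO. The ratio of medians, KO over WT, was 1.31, and 1.50 without the library labelled KO ZT4 A. Among WT libraries WT ZT20 B held both the highest sum, 2090 TPM, and the highest Slc14a1, 2.40 TPM. Among KO libraries the sum was highest in KO ZT0 A, at 2549 TPM with Slc14a1 at 7.67 TPM. In KO ZT0 B it was 2178 TPM with Slc14a1 at 2.69 TPM, and in KO ZT12 A it was 1344 TPM with Slc14a1 at 9.50 TPM. The part of red cells in the genotype difference was not tested.

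Sorl1, the sorting receptor (chromosome 9, 41964720 to 42124297, minus strand), ranged from 15.7 through 20.6 to 25.2 TPM in WT and from 23.0 through 28.6 to 37.2 TPM in KO. Of the 12 KO libraries, 10 exceeded the highest WT library. The exceptions were the library labelled KO ZT4 A at 23.0 TPM and KO ZT20 B at 24.4 TPM. Its log2 difference was 0.51 ± 0.081 (adjusted p = 3.11e-05), and 0.36 with median-of-ratios scaling (adjusted p = 7.08e-04). Its main protein-coding transcript held 59.4% of the level and a retained-intron transcript held 30.2%, with shares of 60.6% and 30.03% in WT and 58.5% and 30.4% in KO.

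Ordered by level per length (TPM), the WT means were Akr1b3 82.5 ± 28.3 (SD, n = 12), Slc6a6 63.6 ± 10.1, Sorl1 20.6 ± 2.76, Slc5a3 12.9 ± 2.74, Slc14a2 10.5 ± 2.58, Nfat5 9.23 ± 1.37, Slc14a1 1.52 ± 0.34 and Slc6a12 1.19 ± 0.58. Neighbours in this order that lay within the spread of each other were Akr1b3 and Slc6a6, Slc5a3 and Slc14a2, Slc14a2 and Nfat5, and Slc14a1 and Slc6a12. In KO the means were 109 ± 61.6 for Akr1b3, 90.3 ± 14.4 for Slc6a6, 29.4 ± 4.23 for Sorl1, 19.7 ± 5.81 for Slc14a2, 18.3 ± 7.87 for Slc5a3, 11.9 ± 2.11 for Nfat5, 3.83 ± 2.35 for Slc14a1 and 3.55 ± 1.65 for Slc6a12. Slc14a2 and Slc5a3 changed places, but their values overlapped widely in both genotypes. Without the library labelled KO ZT4 A, the KO means were 3.76 TPM for Slc6a12, 4.05 TPM for Slc14a1, 20.3 TPM for Slc14a2 and 19.1 TPM for Slc5a3.

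The study sampled across the day, so each gene was also fitted with a 24-hour cosine. None of the 8 was called rhythmic in WT, where 13.7% of all genes were called, and none in KO, where 3.64% were (limma moderated F, Benjamini-Hochberg adjusted p under 0.05). At an unadjusted p under 0.05, 3 passed in WT (Slc5a3, Slc6a6 and Slc14a2), where 29.2% of all genes did, and 1 in KO (Slc6a6), where 21.1% did. In WT the fitted peak-to-trough was 0.77 ± 0.27 (SE, log2) for Slc5a3 with a peak at ZT 19.7 (adjusted p = 0.126), 0.82 ± 0.30 for Slc14a2 at ZT 21.2 (adjusted p = 0.162) and 0.45 ± 0.14 for Slc6a6 at ZT 7.93 (adjusted p = 0.0830). In the WT libraries the mean of Slc5a3 was lowest at ZT8, at 8.91 and 9.82 TPM, and highest at ZT16, at 15.0 and 16.6 TPM. Slc14a2 was likewise lowest at ZT8, at 6.86 and 6.47 TPM, against 13.8 and 13.0 TPM at ZT20. These times were picked from the same values as the lowest and highest means, so the gaps are a description and no test of rhythm.

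These fits share 1 spread per gene between genotypes. With the 12 WT libraries alone, 2 of the 8 were called rhythmic, Slc5a3 (adjusted p = 0.00314) and Slc14a2 (adjusted p = 0.0146), while 22.1% of all genes were called. Slc5a3 was also called when KO ZT12 A was left out (adjusted p = 0.0130, background 16.2%). Slc6a6 was called when WT ZT20 A was left out (adjusted p = 0.0481, background 12.3%) and when the 20 most abundant genes were taken out of the scaling (adjusted p = 0.0478, background 14.2%). A difference in rhythm between the genotypes was called for none of the 8 and for 0.629% of all genes, and 2 of the 8, Slc6a6 and Sorl1, passed an unadjusted p under 0.05, as did 13.7% of all genes. For Slc6a6 the fitted peak lay at ZT 7.93 in WT and ZT 14.4 in KO (adjusted p of the difference = 0.239). For Slc14a2 the peak-to-trough was 0.82 in WT and 0.09 ± 0.30 in KO, and that difference did not pass either (adjusted p = 0.557).

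**Figure D3:**
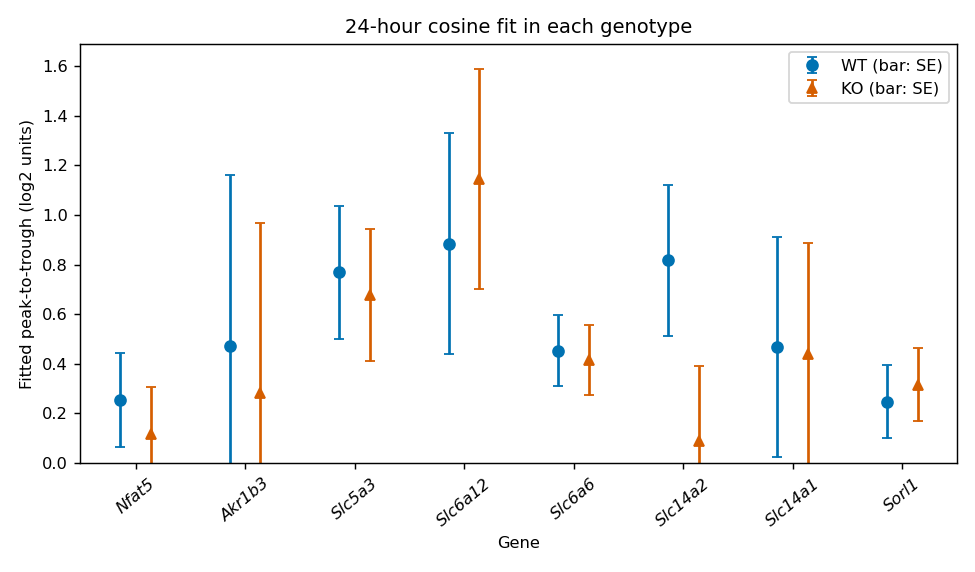
Fitted peak-to-trough of a 24-hour cosine (log2 units, y axis from 0) for each gene in WT (circles) and KO (triangles), with bars of 1 SE. The WT value of Slc14a2, 0.82, stands above its KO value, 0.09, while the bars of WT and KO overlap for each of the other 7 genes.

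In bulk kidney, a change in the share of medullary cells and a change in RNA per cell cannot be told apart. Markers of the cell types that carry these genes were therefore summed per library, with the 8 genes left out of the lists. All 4 thin limb markers (Cryab, Sptssb, Bst1 and Cldn4) averaged 1 TPM or more, and their sum ran from 69.5 to 144 TPM in WT and from 99.7 to 217 TPM in KO, a ratio of medians of 1.35. Cryab, which also stands in the hypertonicity list below and is 1 of the 2 genes most like Akr1b3, made up 84.2% of that sum. The other 3 summed to 11.8 to 17.8 TPM in WT and 16.2 to 45.2 TPM in KO, a ratio of 1.65. Sums without the most abundant marker were added after the data were seen. All 8 collecting duct markers were detected, and their sum ran from 229 to 360 TPM in WT and from 299 to 631 TPM in KO, a ratio of 1.38. The 6 thick ascending limb markers summed to 1553 to 2300 TPM in WT and 1814 to 2253 TPM in KO, a ratio of 1.02. Umod, which was lower in KO, made up 54.2% of that sum, and the other 5 markers summed to 626 to 830 TPM in WT and 743 to 1364 TPM in KO, a ratio of 1.50. The sums for endothelium and vasa recta (6 markers, 126 to 181 TPM in WT and 140 to 241 TPM in KO) had a ratio of 1.20, and those for proximal tubule (7 markers, 3232 to 4347 and 2992 to 4032 TPM) one of 0.956. Distal convoluted tubule, intercalated cell and podocyte markers, which are cortical or mixed, had ratios of 1.44, 1.37 and 1.36. Macrophage markers had a ratio of 0.836. Without the most abundant marker the ratios were 1.49 for collecting duct, 1.08 for endothelium and vasa recta and 0.874 for proximal tubule. They were 1.50, 1.33 and 1.35 for distal convoluted tubule, intercalated cells and podocytes. Higher sums in KO were thus seen for several cortical as well as medullary lists, but not for proximal tubule. The median log2 difference over all genes was 0.15. With all markers, but without the library labelled KO ZT4 A, the ratios were 1.59 for thin limb, 1.41 for collecting duct, 1.05 for thick ascending limb and 1.21 for endothelium and vasa recta. For distal convoluted tubule, intercalated cells and podocytes they were then 1.45, 1.37 and 1.36. For proximal tubule and macrophages they were 0.943 and 0.809.

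The thin limb sum was highest in KO ZT12 A, at 217 TPM, the library in which 6 of the 8 genes had their highest KO value. It was 107 TPM in the library labelled KO ZT4 A and lowest among KO libraries in KO ZT20 A, at 99.7 TPM. Without Cryab it was highest in KO ZT8 A, at 45.2 TPM, followed by 35.0 TPM in KO ZT12 A, and lowest in KO ZT4 A, at 16.2 TPM. The KO ZT8 A and KO ZT8 B libraries, at 215 and 111 TPM, differed in the same direction in Akr1b3, at 187 and 61.0 TPM, and in Slc14a1, at 4.35 and 2.37 TPM. The same held for Slc14a2 (19.1 and 13.1 TPM), Slc5a3 (17.8 and 13.0 TPM) and Slc6a12 (3.56 and 1.89 TPM). In contrast, Slc6a6 stood at 79.9 and 96.4 TPM in these libraries, and Sorl1 at 26.4 and 31.9 TPM. Nfat5 was nearly level, at 10.23 and 10.16 TPM. Urothelial markers of the papilla and pelvis (8, of which Krt5 averaged under 1 TPM) summed to 184 TPM in KO ZT8 A, against 12.8 to 27.6 TPM in WT. The next highest was KO ZT12 A, at 59.8 TPM. Both KO ZT0 libraries, KO ZT8 B and both KO ZT16 libraries also exceeded the WT range, while the remaining KO libraries did not. The ratio of medians for this list, KO over WT, was 1.44, and 1.48 without the library labelled KO ZT4 A. With KO ZT4 A, KO ZT8 A and both KO ZT12 libraries left out together, chosen after the data were seen, the same 7 genes were called by genotype. The share of all genes called by genotype in that fit is not given here. Slc5a3 was called rhythmic in WT in the same fit (background 21.4%). The part of the marker sums in the genotype differences was not tested.

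**Figure D4:**
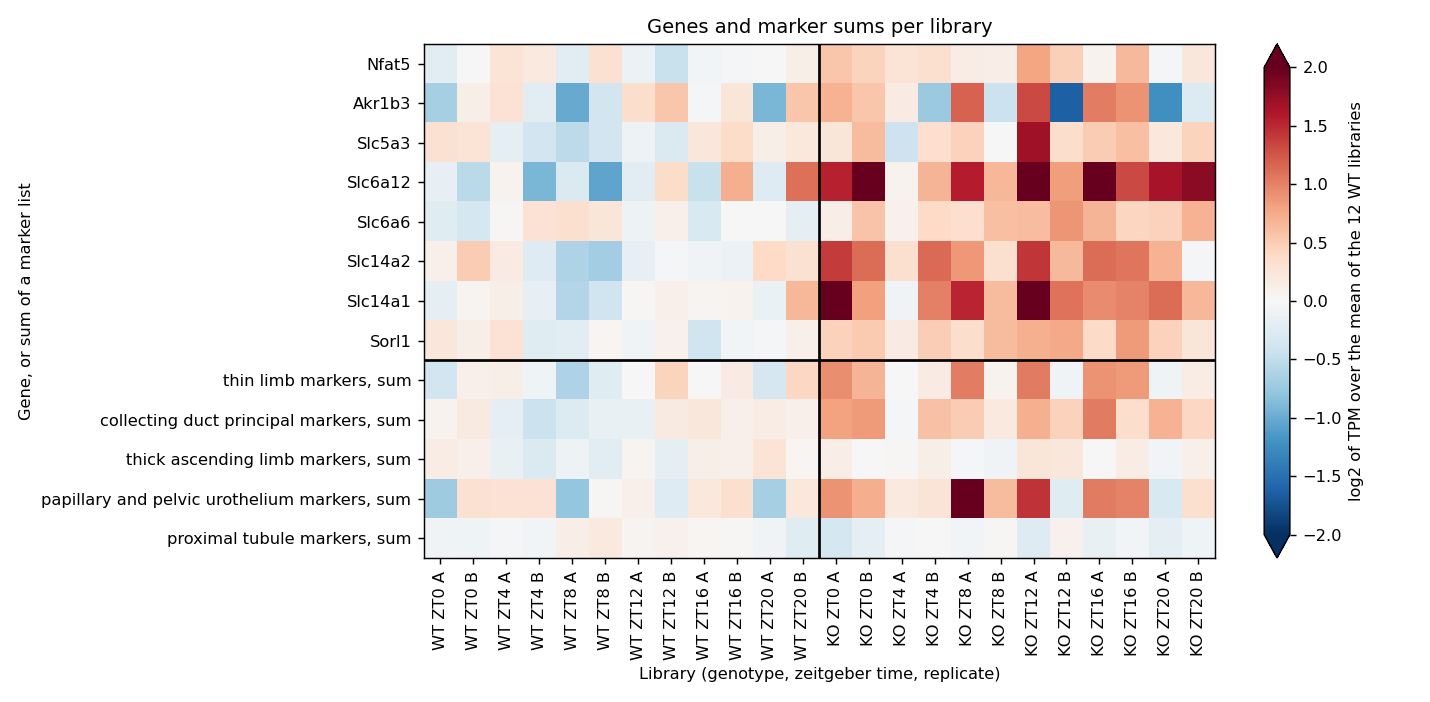
Log2 of TPM over the mean of the 12 WT libraries, for the 8 genes (upper rows) and 5 marker sums (lower rows) in each of the 24 libraries (columns). Colours end at a difference of 2 in either direction. KO ZT12 A is red for the 8 genes and for the thin limb sum (217 TPM), the library labelled KO ZT4 A is pale like WT, and Akr1b3 alternates between red and blue within KO.

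Around the 8 genes, other parts of the pathway were counted from lists chosen by known function, with earlier results of these data known. Of all genes, 50.9% were higher and 10% lower in KO. With median-of-ratios scaling these shares of all genes were 21.5% higher and 22.6% lower. For the rhythm counts below, 13.7% of all genes were called in WT and 3.64% in KO. With the WT libraries alone the WT share was 22.1%. Of 13 genes of osmolyte metabolism, 7 rose and 4 fell, with a median log2 difference of 0.18. Bhmt, which consumes betaine in making methionine, rose from a mean of 1.46 TPM in WT to 57.4 TPM in KO (log2 difference 4.94 ± 0.44, adjusted p = 3.75e-07). Of the myo-inositol pathway, Impa2 rose by 0.66 and Isyna1, which makes inositol phosphate from glucose phosphate, by 0.50. Sord, which oxidises sorbitol, fell by 0.28, Miox, which degrades myo-inositol, by 0.39, Csad, an enzyme of taurine synthesis, by 0.53, and Chdh, which begins betaine synthesis from choline, by 0.21. These 4 were named as all the members that fell, after their values were seen. With median-of-ratios scaling 4 were higher and the same 4 were lower, with a median of 0.03. In WT, 2 of the 13 were rhythmic, and 3 in KO. Of these, Pnpla6, which releases the osmolyte glycerophosphocholine, had a WT peak-to-trough of 0.37 (adjusted p = 0.0117), and Isyna1 had 0.48 (adjusted p = 0.0461), and was called in 8 of 24 leave-one-out fits. When single libraries were left out, the WT count ran from 0 to 4 and the KO count from 0 to 4.

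Of 14 other genes induced by hypertonicity, 13 were tested, with Ptgs2 below the filter at 0.126 TPM in WT and 0.172 TPM in KO. Of these, 7 rose and 0 fell, with a median of 0.37. Slc5a11, a second inositol transporter, rose by 0.65, Sgk1, a kinase that acts on sodium transport, by 0.91, and S100a4, a calcium-binding protein, by 0.54. With median-of-ratios scaling 4 were higher, these 3 among them, and 1 was lower (Hsph1). The WT rhythm was called for 3, among them the heat shock proteins Hspa4l (peak-to-trough 0.996, peak at ZT 21.6, adjusted p = 0.00456) and Hsph1 (1.31, ZT 19.7, adjusted p = 0.0367). That count ran from 1 to 4 when single libraries were left out and was 6 with the WT libraries alone (background 22.1%). Hspa4l was called in all 24 leave-one-out fits and Hsph1 in 14. Of 15 regulators of Nfat5, 8 rose and 1 fell, with a median of 0.09, below that of all genes. With median-of-ratios scaling 3 regulators were higher and 6 lower, with a median of -0.06. The balance over all genes moved the same way under that scaling, to 21.5% higher and 22.6% lower. The 3 higher regulators were Plcg1, Parp1 and Map3k3. On the deposited values Plcg1 rose by 0.31, Parp1 by 0.27 and Map3k3 by 0.34. Map2k6, a kinase upstream of p38, fell by 0.35 and was the one regulator rhythmic in WT on the deposited values (peak-to-trough 0.79, peak at ZT 10.8, adjusted p = 0.00204). The count of rhythmic regulators was 4 with median-of-ratios scaling and 2 with the WT libraries alone.

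Of 14 genes of urine concentration and urea handling, 12 rose and 1 fell, with a median of 0.52. With median-of-ratios scaling 11 were higher and 1 lower. Among them were Kcnj1, the potassium channel of the thick ascending limb (59.9 TPM in WT, 102 TPM in KO, log2 difference 0.76), Bsnd, the chloride channel subunit barttin (0.48), and Slc12a1, the cotransporter itself (236 and 395 TPM, 0.72). The gene that fell was Umod (1194 and 926 TPM, by 0.36), which encodes uromodulin of the same segment. Arg2, the arginase of kidney mitochondria that releases urea, had the largest difference of this list, from 2.60 to 21.2 TPM (2.78 ± 0.30, adjusted p = 9.08e-07), and was named after its value was seen, as was Umod. Of this list, Aqp2, Aqp3, Avpr2, Slc12a1, Kcnj1 and Umod also stand in the marker sums above. In WT, 6 of the 14 were rhythmic, from 4 to 7 when single libraries were left out, 9 with the WT libraries alone and 2 with time as a 6-level factor. The vasopressin receptors led: Avpr1a had a peak-to-trough of 2.01 with a peak at ZT 23.3 (adjusted p = 3.2e-05), and Avpr2, the receptor that opens the collecting duct to water, had 1.08 with a peak at ZT 21.1 (adjusted p = 0.00301). Avpr1a was also the one gene of the list with a called rhythm difference (adjusted p = 0.00255), with a peak-to-trough of 0.36 in KO.

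Of 8 partners of Sorl1, 7 rose and 0 fell, with a median of 0.30. Slc12a1, already counted above, rose by 0.72, Sort1, a related sorting receptor, by 0.68, and the kinase Stk39 (SPAK), which activates the cotransporter, by 0.53. Stk39 alone was called rhythmic in WT (peak-to-trough 0.50, adjusted p = 0.0375), and in 14 of 24 leave-one-out fits. All 10 fits in which it was not called lacked a WT library. Vps35 of the retromer coat stood at 53.5 TPM in WT and 52.1 TPM in KO and was not called. With median-of-ratios scaling 4 were higher and 1, Vps35, was lower. Without the library labelled KO ZT4 A the numbers higher and lower were the same as with it in 4 of the 5 lists, and in the hypertonicity list 8 were higher and 0 lower. Bhmt then differed by 5.36 and Arg2 by 3.04 on the log2 scale.

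For each of the 8 genes, up to 2 genes most alike across the 24 libraries were taken by Pearson r of log2(TPM + 0.1), as a description over points that share genotype and time. Slc6a6 was most like Bmp6 (r = 0.940) and Ppat (0.907). Slc14a1 was most like Elovl6 (0.933) and Spp1 (0.923), Slc14a2 like Esam (0.928) and Anxa2 (0.915), and Slc6a12 like Scel (0.916) and Mbp (0.914). Gstm2 (0.897) was among the 2 genes most like Sorl1, and Slc5a3 like Ss18 (0.896) and Fam129b (0.886). Akr1b3 was most like Cldn11 (0.876), a tight junction protein, and Cryab (0.875), a small heat shock protein that also stood in the thin limb and hypertonicity lists. Nfat5 was most like Soga1 (0.861) and Atrn (0.846).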

How the data were processed

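Polyadenylated RNA of 24 mouse kidney libraries (12 WT, 12 KO) was analysed. The authors deposited TPM per transcript, quantified with kallisto 0.42.4 for GRCm38 (mm10), per the submitters' processing notes. The index, the strand setting and the depth are not given in the sources used here. The chromatin contact tables were not used here.

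Transcripts were summed to genes through GENCODE M21; 86119 of 88198 matched, and the rest held 1.35% to 2.24% of TPM per library. The 12874 genes averaging 1 TPM or more were tested as log2(TPM + 0.1) with limma 3.58.1 in R 4.3.3 (trend and robust options), with Benjamini-Hochberg adjustment over all genes tested and a threshold of 0.05. Fold changes are on that log2 scale, which understates those of low genes. The genotype model held time as a 6-level factor. Rhythm was a moderated F test of a 24-hour cosine and sine per genotype, and its difference between genotypes was tested in the same model. Tests were run first on simulated data. Promoters came from RefSeq.

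The 8 genes, the lists and the alternatives were chosen with earlier results of these data known. Named were the 8 genes; of each list, up to 3 genes with the smallest p for genotype and up to 2 for WT rhythm among those called; and the 2 genes most alike for each of the 8. Alternatives covered the pseudocount, the filter, the scaling, protein-coding transcripts only, the limma options, the time term, each genotype alone, the replicate letter and each library left out. A few items are not reported here, and the lists were counted without them.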

Additional observations from a re-analysis of the deposited data

How the results depend on the processing

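Across the alternatives the 7 genes called by genotype kept their direction, with 2 lost calls: under median-of-ratios scaling, Nfat5 (0.20, adjusted p = 0.0710) and Slc5a3 (0.30, adjusted p = 0.0667), leaving 5. With a filter at a mean of 5 TPM, Slc6a12 and Slc14a1 were not tested and 5 of 6 genes were called, with 53.2% of all genes called higher. Leaving out each library in turn gave 7 each time. With all libraries, 60.9% of all genes were called in either direction. Akr1b3 ranged from 0.07 to 0.44 and was never called. The log2 differences of Slc6a12 ran from 1.003, with a pseudocount of 1 TPM, to 1.65.

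The count of genes rhythmic in WT, 0 with all libraries, was 2 with the WT libraries alone, 1 with the scaling taken without the 20 most abundant genes, and 1 with KO ZT4 A, KO ZT8 A and both KO ZT12 libraries left out together, an alternative chosen after seeing the data in which Slc5a3 was called (adjusted p = 0.00292, background 21.4%). It ran from 0 to 1 when each library was left out in turn. The cause was not tested. The counts for KO rhythm and for a rhythm difference were 0 under each alternative.

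With the replicate letter as a block, 7 of the 8 genes differed between genotypes and 0 were rhythmic in either genotype, so no count over the 8 changed. Over the lists, osmolyte genes rhythmic in WT went from 2 to 1 and urine concentration genes rhythmic in KO from 1 to 0. The letters were not treated as pairs. Over 66 pairs of groups, the correlation of the differences between A and B ran from -0.323 to 0.338 (median 0.0223), and 21 of the 66 were over 0.1. A batch shared by some of the groups was not tested. Depth is unknown, so precision at the levels of Slc6a12 and Slc14a1, near 1 TPM in WT, rests on the spread between libraries.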
